A study of Mus musculus with 6 samples.

Results

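The senescence and inflammatory secretory genes described here are 9 genes chosen by name: Cdkn2a, Cdkn2b, Il6, Lif, Cxcl1, Ccl2, Ccl7, Gdf15 and Glb1. Each matched 1 of the 25491 genes in the deposited count table. Their mRNA was measured by RNA sequencing in mesenchymal progenitor cells, stromal cells of mouse bone marrow that can form bone and fat and that nourish blood stem cells. They were sorted fresh by surface markers, negative for CD45, TER119, CD31, CD44 and SCA1 and positive for CD51. Cells of Lama4-/- mice (3 libraries), which lack the laminin alpha 4 chain of basement membranes, were compared with cells of wild type mice (3 libraries). All mice were C57BL/6J, 14 weeks old, and both genotypes had received a sublethal dose of 7 Gy of radiation 6 weeks before, so no unirradiated group enters any comparison. The Lama4-/- libraries held 12979711 to 15663957 counts and the wild type libraries 6263830 to 13409177. Lama4 itself had 0 counts in all 3 Lama4-/- libraries, against 236 to 607 counts in the wild type libraries. Whether the 3 libraries of a genotype stand for 3 mice is not given in the labels. The p-values therefore measure only the spread among the samples, and that spread may be technical.

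Cellular senescence is a lasting arrest of the cell cycle that follows DNA damage and other stress. It is held in place by inhibitors of cyclin-dependent kinases, of which Cdkn2a encodes p16Ink4a and, from another first exon, p19Arf, and Cdkn2b encodes p15Ink4b. Senescent cells often secrete cytokines, chemokines, proteases and growth factors, together called the senescence-associated secretory phenotype, whose inflammatory part is driven largely by NF-kB and C/EBP beta. In bone marrow, radiation is a known trigger of senescence in stromal cells, and the same secreted factors are also made by stroma and myeloid cells that are not senescent.

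No member passed the test of a difference between Lama4-/- and wild type cells, and the spread between libraries was wide for most of them. Of the 9, 8 had enough counts to be tested, and 0 of the 8 passed an adjusted p of 0.05 in edgeR's quasi-likelihood test (0.00691% of all 14465 tested genes did, which is Lama4 alone). An unadjusted p under 0.05 was likewise reached by 0 of the 8, against 12.8% of all tested genes (4.45% higher and 8.34% lower in Lama4-/-). DESeq2 and limma voom also called 0 of the 8, where DESeq2 called 4.64% of the genes it tested. Since limma voom called 0 of all 14465 genes, its result says nothing about the members in particular. Of the 7 members with an adjusted p in the authors' deposited table, 0 were under 0.05, against 6.63% of its genes. The log2 fold changes of the 9 members in the authors' deposited table ran from -0.48 (Cdkn2b) to 0.45 (Gdf15). In 0 of the 9 genes did the Lama4-/- values lie wholly above or below the wild type values, while the groups did not overlap for 22.3% of tested genes. The log2 fold change (Lama4-/- over wild type) was positive for 3 members and negative for 5, with a median of -0.13, against -0.04 over all tested genes.

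**Figure D1:**
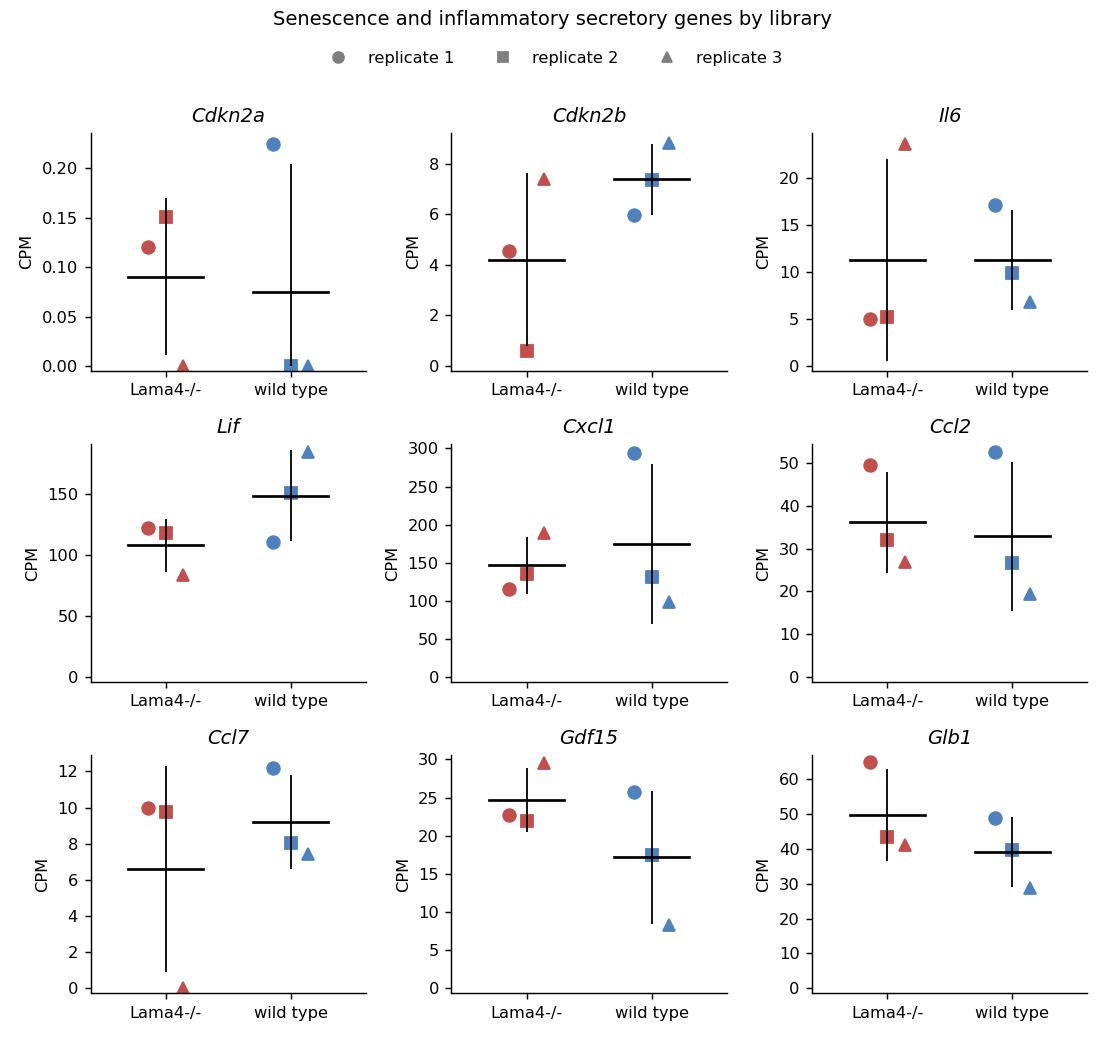
Level of the 9 genes as counts scaled to library size (CPM, linear axes, 1 panel a gene), with Lama4-/- libraries on the left and wild type libraries on the right. Symbols mark replicates, horizontal lines the means and vertical lines 1 SD (n = 3 libraries each, cut at 0); the groups overlap in all 9 panels, and Ccl7 is at 0 in Lama4-/- replicate 3.

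**Figure D2:**
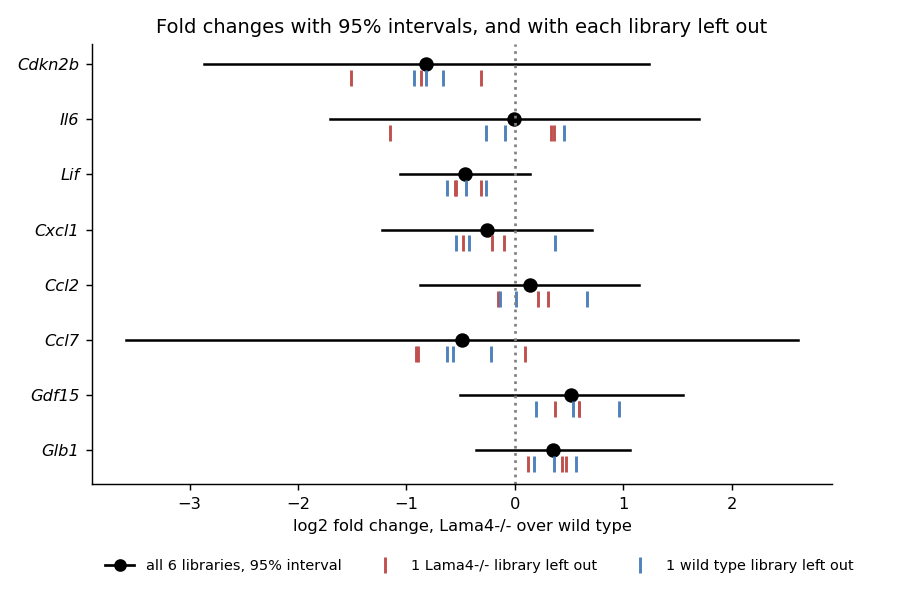
Log2 fold change of the 8 tested members (Lama4-/- over wild type, horizontal axis) with its 95% interval, and below each the value with 1 library left out (coloured ticks, by the genotype of that library). All 8 intervals span 0, from the narrowest for Lif (-1.06 to 0.14) to the widest for Ccl7 (-3.59 to 2.62), and the ticks cross 0 for Il6, Cxcl1, Ccl2 and Ccl7.

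Per length of transcript, the 9 genes spanned a wide range of levels. In CPM (counts scaled to library size) per kilobase of the longest annotated transcript, Cxcl1 was the most abundant, at a mean of 78.4 in Lama4-/- and 93.5 in wild type libraries. Ccl2 followed at 33.0 and 29.96, Lif at 26.8 and 36.9, Glb1 at 17.7 and 13.9, and Gdf15 at 15.98 and 11.1 in Lama4-/- and wild type. Ccl7 was at 8.21 in Lama4-/- and 11.5 in wild type, Il6 at 4.80 and 4.82, and Cdkn2b at 3.01 and 5.31. Cdkn2a was at 0.101 in Lama4-/- and 0.0836 in wild type. Over the 6 libraries, Cxcl1 ran from 52.6 to 157 CPM per kilobase and stood above the full ranges of Ccl2, 17.6 to 47.9, and Lif, 20.7 to 45.8. By the Lama4-/- mean Ccl2 came second, and by the wild type mean and the mean over all 6 libraries Lif did. In the order of the Lama4-/- means, for each later pair of neighbours from Ccl2 down to Cdkn2b the ranges over libraries overlapped, and Cdkn2a lay below the range of Cdkn2b. Among all tested genes, the mean level of Cxcl1 was at percentile 95.8, that of Il6 at 49.8 and that of Cdkn2b at 46.1.

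The cyclin-dependent kinase inhibitors were among the least abundant members, although Cdkn2b was below Il6 per kilobase in Lama4-/- and above it in wild type. Cdkn2a (chromosome 4, 89274471 to 89294653, minus strand, GRCm38), the locus most often used to mark senescent cells, was all but uncounted. Lama4-/- replicates 1, 2 and 3 held 2, 2 and 0 of its counts, and wild type replicates 1, 2 and 3 held 3, 0 and 0. It was too low to be tested, at 4 counts in all Lama4-/- libraries and 3 in all wild type libraries, so a difference was not detectable at this depth. In libraries with 0 counts, a level of up to 0.218 CPM in Lama4-/- replicate 3, 0.514 CPM in wild type replicate 2 and 0.231 CPM in wild type replicate 3 was allowed (3 counts a library, counting error only). The count covers both annotated transcripts of the gene, so p16Ink4a and p19Arf were not told apart.

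Cdkn2b lies 11645 bases from Cdkn2a (chromosome 4, 89306299 to 89311039, minus strand) and was counted in all libraries. It was at 4.56, 0.602 and 7.41 CPM in Lama4-/- replicates 1, 2 and 3, and at 5.98, 7.36 and 8.80 CPM in wild type replicates 1, 2 and 3. The wild type libraries lay close together, whereas Lama4-/- replicate 2, with 8 counts, stood far below the rest and Lama4-/- replicate 3 lay inside the wild type range. Its log2 fold change was -0.81 (SE 0.88), with a 95% interval from -2.87 to 1.23 (edgeR adjusted p = 0.761). It was -0.31 without Lama4-/- replicate 2 and -1.51 without Lama4-/- replicate 3. The interval spans a level in Lama4-/- between 0.137 and 2.35 times that of wild type.

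The list of other genes of the cell cycle and its arrest held 28 genes, all tested. At an unadjusted p under 0.05, 2 were higher and 3 lower in Lama4-/-, and 0 passed the adjustment in edgeR. These 5 were 17.9% of the list, against 12.8% of all tested genes (4.45% higher and 8.34% lower). In place of 5 there was 1 without wild type replicate 3, and 3 without each of Lama4-/- replicates 1 and 3 and wild type replicate 1. The median log2 fold change was -0.07. Cdk6, a kinase that p16Ink4a and p15Ink4b inhibit, averaged 43.4 ± 6.51 CPM in Lama4-/- and 92.6 ± 38.0 CPM in wild type (SD, n = 3 each; log2 fold change -1.10, adjusted p = 0.281 in edgeR). The proliferation marker Mki67 was at 10.2 ± 1.91 CPM in Lama4-/- and 39.1 ± 35.99 CPM in wild type, where replicate 3 alone held 80.5 CPM (adjusted p = 0.295 in edgeR, 0.04999 in DESeq2). Its log2 fold change was -1.95, and between -2.33 and -0.86 with each library left out. Cyclin D2 (Ccnd2), the partner of Cdk4 and Cdk6, was at 62.6 ± 7.87 CPM in Lama4-/- and 131.9 ± 64.1 CPM in wild type (adjusted p = 0.318 in edgeR). The transcripts of these 3 genes are long, and fold changes in this comparison followed transcript length: Spearman's rho between the log2 fold change and the length was -0.46 over 14458 genes, which are not independent replicates. With that trend removed, the log2 fold change of Cdk6 was 0.12, that of Mki67 -0.74 and that of Ccnd2 -0.34. The p53 target Cdkn1a, which encodes p21 and was chosen here after its values were seen, was at 531 to 606 CPM in Lama4-/- and 577 to 638 CPM in wild type, with groups that overlapped (log2 fold change -0.10, SE 0.16). Exons of Cdk6, Ccnd2 and Cdkn1a overlap those of other annotated genes, and the reads do not carry strand.

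Il6 and Lif encode cytokines of 1 family that signal through the shared receptor chain gp130 and STAT3. Il6 (chromosome 5, 30013114 to 30019981, plus strand), the best known inflammatory cytokine of the secretory phenotype, was at 4.98, 5.19 and 23.6 CPM in Lama4-/- replicates 1, 2 and 3. In wild type replicates 1, 2 and 3 it was at 17.1, 9.93 and 6.79 CPM. Within the Lama4-/- group the highest library was 4.74 times the lowest, and within wild type 2.52 times, and the highest and the lowest of all 6 values both belonged to Lama4-/-. The group means were almost equal, at 11.3 ± 10.7 CPM in Lama4-/- and 11.3 ± 5.30 CPM in wild type (SD, n = 3 each). Between the genotypes the log2 fold change was -0.0055 (SE 0.73), with a 95% interval from -1.71 to 1.70 (adjusted p = 0.997 in edgeR). Its sign depended on single libraries: it was -1.15 without Lama4-/- replicate 3, and 0.36, 0.33 and 0.45 without Lama4-/- replicate 1, Lama4-/- replicate 2 and wild type replicate 1.

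Lif (chromosome 11, 4257557 to 4272514, plus strand), leukaemia inhibitory factor, had the smallest standard error of the 8 tested members. It was at 121.8, 118 and 83.2 CPM in Lama4-/- replicates 1, 2 and 3, and at 110.4, 151 and 184 CPM in wild type replicates 1, 2 and 3. Wild type replicates 2 and 3 exceeded every Lama4-/- library, while wild type replicate 1 lay among them. Lif had the smallest p of the 8 tested members, with a log2 fold change of -0.46 (SE 0.26), a 95% interval from -1.06 to 0.14 and an edgeR adjusted p = 0.512 (unadjusted p = 0.112). Without wild type replicate 1 the log2 fold change was -0.62 with an unadjusted p of 0.0451 and an edgeR adjusted p of 0.506. It was -0.27 without wild type replicate 3 and -0.31 without Lama4-/- replicate 3. With the length trend removed it was -0.24.

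The list of receptors and transducers of the secreted members and of related cytokines held 22 genes, of which 14 were tested. At an unadjusted p under 0.05 there were 0 higher and 4 lower in Lama4-/-, and 0 passed the adjustment in edgeR. These 4 were 28.6% of those tested, against 12.8% of all tested genes (4.45% higher and 8.34% lower). The median log2 fold change was -0.27. With upper-quartile scaling the count was 2 in place of 4. It was 1 without Lama4-/- replicate 2, and 2 without each of Lama4-/- replicate 1 and wild type replicates 1 and 3. The 3 with the smallest p all belong to the receptors of the IL-6 family, although Osmr serves oncostatin M, which is not a member. The groups did not overlap in any of the 3, which were taken for their small p, and did not overlap for 22.3% of all tested genes. The oncostatin M receptor Osmr was at 58.5, 81.1 and 61.8 CPM in Lama4-/- replicates 1 to 3, against 110.2, 172 and 119 CPM in wild type replicates 1 to 3 (log2 fold change -0.99, SE 0.25, adjusted p = 0.238 in edgeR). Il6st, which encodes gp130, was at 146.5, 108 and 62.5 CPM in Lama4-/-, against 168, 237 and 191 CPM in wild type (log2 fold change -0.91, SE 0.32, adjusted p = 0.321). The IL-6 receptor Il6ra was at 3.96, 6.09 and 6.39 CPM in Lama4-/-, against 12.2, 9.25 and 15.4 CPM in wild type (log2 fold change -1.16, SE 0.48, adjusted p = 0.373). Osmr alone of the 3 passed with DESeq2 (adjusted p = 0.0165). These are long transcripts of 5491 to 8678 bases, and with the length trend removed the log2 fold changes were -0.44 for Osmr, 0.0053 for Il6st and -0.17 for Il6ra, while the list then had 1 gene higher and 0 lower at an unadjusted p under 0.05. Exons of Il6ra overlap those of the predicted gene Gm42809, and the reads do not carry strand. Lifr, the receptor of LIF, and Socs3, a feedback inhibitor that STAT3 induces, were chosen here after their values were seen. Lifr was at 248 to 280.5 CPM in Lama4-/- and 232 to 342 CPM in wild type, and Socs3 at 574 to 585 CPM in Lama4-/- and 377 to 739 CPM in wild type, with overlapping groups for both.

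**Figure D3:**
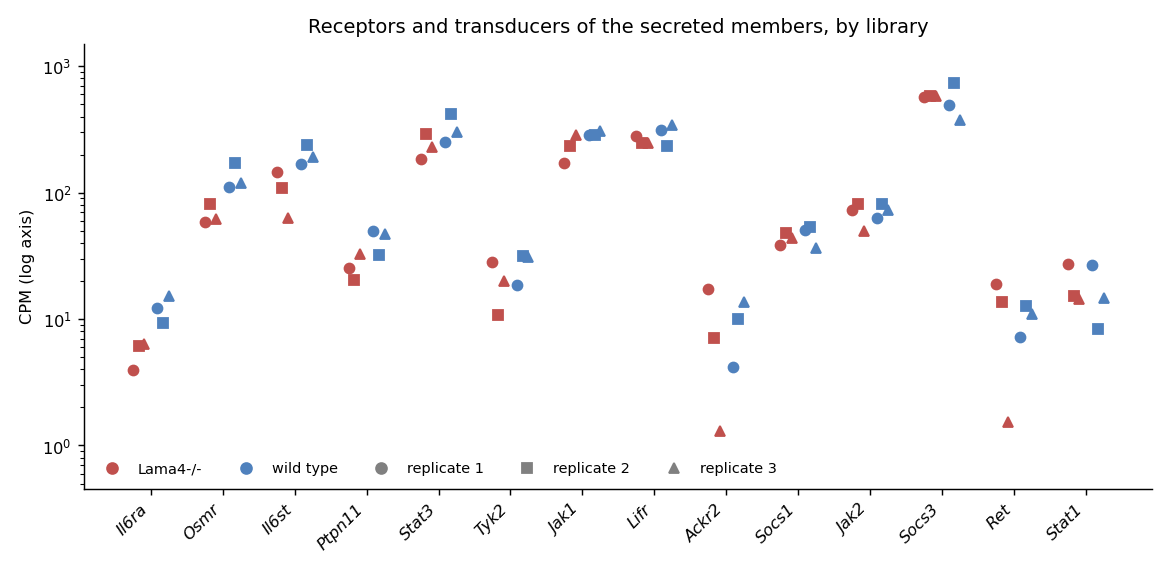
CPM (log axis) of the 14 tested receptors and transducers in each library, ordered by log2 fold change, with the 3 Lama4-/- libraries left of the 3 wild type libraries for each gene and symbols marking replicates. Il6ra, Osmr and Il6st are the genes at the left end, where every Lama4-/- value lies below every wild type value.

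The chemokines recruit myeloid cells, Cxcl1 mainly neutrophils through CXCR2 and Ccl2 and Ccl7 mainly monocytes through CCR2. Cxcl1 (chromosome 5, 90891241 to 90893115, plus strand) was at 116, 136 and 189 CPM in Lama4-/- replicates 1, 2 and 3, and at 294, 132 and 98.5 CPM in wild type replicates 1, 2 and 3. The Lama4-/- libraries all lay within the range of wild type, whose replicate 1 stood above the rest at 2.99 times its lowest library. For Cxcl1 the log2 fold change was -0.25 (SE 0.42), with a 95% interval from -1.23 to 0.72 (adjusted p = 0.856 in edgeR). Without wild type replicate 1 it was 0.37. Cxcl1 and Il6 shared their highest library in each genotype, replicate 3 in Lama4-/- and replicate 1 in wild type.

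Both Il6 and Cxcl1 are textbook targets of NF-kB, so the sequences just before their RefSeq starts are shown, with a search for 4 motifs in them. The 250 bases before the start, GRCm38.p6, are given 5′ to 3′ on the plus strand, which is the strand of both genes. Capitals mark matches to the kappa B consensus, and in Il6 also the earlier match to the C/EBP motif TTNNGNAAT.
Il6, chr5:30012864-30013113: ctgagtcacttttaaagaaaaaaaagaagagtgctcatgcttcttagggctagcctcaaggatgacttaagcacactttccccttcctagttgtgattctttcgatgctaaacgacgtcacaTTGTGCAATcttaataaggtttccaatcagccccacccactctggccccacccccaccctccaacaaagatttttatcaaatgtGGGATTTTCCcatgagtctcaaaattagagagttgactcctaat
Cxcl1, chr5:90890995-90891244: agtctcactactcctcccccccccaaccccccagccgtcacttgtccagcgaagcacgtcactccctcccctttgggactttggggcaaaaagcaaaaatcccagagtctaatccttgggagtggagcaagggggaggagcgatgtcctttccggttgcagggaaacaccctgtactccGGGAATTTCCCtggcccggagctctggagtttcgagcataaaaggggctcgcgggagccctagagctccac
The kappa B match begins 44 bases before the start in Il6 and 71 bases before it in Cxcl1, where a second match on the same stretch begins 1 base later. RefSeq promoters were found for 7 of the 9 members, and Ccl2 and Ccl7 were not among them. Of those 7, the kappa B consensus was found in 3 (Il6, Cxcl1 and Lif), against 7.25% of 32851 promoters of the same length. The C/EBP motif was found in 2 of the 7, Il6 and Glb1, against 10.2% of promoters. The AP-1 motif TGANTCA was found in 3 of the 7, Il6, Lif and Glb1, against 6.75%, and the cyclic AMP response element TGACGTCA in Cdkn2b, against 1.55%. Both strands were searched, and no 2 of these motifs share their letters at 1 place in these promoters apart from the overlapping kappa B matches. A member was counted if any of its promoters matched (Cdkn2a and Gdf15 have 2 each), whereas the percentages are over single promoters. As the members were chosen by name and Il6 and Cxcl1 are known targets, these counts are no test of enrichment. A match is a description of the letters and no evidence of binding.

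Ccl2 (chromosome 11, 82035571 to 82037453, plus strand), monocyte chemoattractant protein 1, was at 49.5, 32.0 and 26.9 CPM in Lama4-/- replicates 1, 2 and 3. In wild type replicates 1, 2 and 3 it was at 52.5, 26.7 and 19.3 CPM. Replicate 1 was the highest library and replicate 3 the lowest in both genotypes, and the groups overlapped over most of their range. Ccl2 had a log2 fold change of 0.14 (SE 0.43), with a 95% interval from -0.87 to 1.15 (adjusted p = 0.931 in edgeR). It was -0.15 without Lama4-/- replicate 1, -0.14 without wild type replicate 3 and 0.67 without wild type replicate 1.

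Ccl7, monocyte chemoattractant protein 3, lies 8258 bases downstream of Ccl2 on the same strand (chromosome 11, 82045712 to 82047525). It was at 9.96, 9.78 and 0 CPM in Lama4-/- replicates 1, 2 and 3, and at 12.2, 8.05 and 7.41 CPM in wild type replicates 1, 2 and 3. Lama4-/- replicate 3 stood apart, with 0 counts beside 166 and 130 in the other Lama4-/- libraries and 47 to 163 in wild type, and a count of 0 allows up to 0.218 CPM there. That same library held 371 counts of the neighbouring Ccl2 and the highest Il6 level of the 6. For Ccl7 the log2 fold change was -0.49 (SE 1.33), with a 95% interval from -3.59 to 2.62 (adjusted p = 0.921 in edgeR), and it was 0.097 without Lama4-/- replicate 3.

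Of 62 other genes of the senescence-associated secretory phenotype, not all of which encode secreted proteins, 49 were tested and 13 were too low. At an unadjusted p under 0.05 there were 1 higher and 6 lower in Lama4-/-, and 0 passed the adjustment in edgeR. Together they were 14.3% of those tested, near the 12.8% of all tested genes (4.45% higher and 8.34% lower). The median log2 fold change was -0.30, and -0.26 with the length trend removed, when again 1 was higher and 6 lower. In place of these 7 there were 13 without Lama4-/- replicate 2, and 13 with no filter on low counts. Igfbp5, a binding protein of insulin-like growth factors, was at 354.7, 338 and 204 CPM in Lama4-/- replicates 1 to 3, against 1039.6, 696 and 808 CPM in wild type replicates 1 to 3. Its log2 fold change was -1.50 (SE 0.27, adjusted p = 0.237 in edgeR, 8.24e-05 in DESeq2), and -0.86 with the length trend removed. Inhba, the activin beta A subunit, was at 6.97 ± 1.49 CPM in Lama4-/- and 34.8 ± 20.4 CPM in wild type (log2 fold change -2.32, adjusted p = 0.237 in edgeR). Ptgs2, the inducible cyclooxygenase of prostaglandin synthesis, was at 21.1 ± 3.05 CPM in Lama4-/- and 45.4 ± 10.8 CPM in wild type (SD, n = 3 each; log2 fold change -1.11, adjusted p = 0.238). In all 3 genes every Lama4-/- library lay below every wild type library, and all 3 passed with DESeq2. The 3 were taken for the smallest p of their list, so both traits follow in part from that choice. Groups did not overlap for 22.3% of all tested genes. Il1a and Tnf, upstream cytokines of the phenotype chosen here after their values were seen, were scarce: Il1a held 6 counts over all libraries, and Tnf was at 0.060 to 3.46 CPM in Lama4-/- and 1.03 to 6.63 CPM in wild type. Exons of Il1a overlap those of the predicted gene Gm14023.

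Next came the genes that control these cytokines and chemokines. In the list of NF-kB and C/EBP control, 29 of 30 were tested, with 1 higher and 8 lower in Lama4-/- at an unadjusted p under 0.05 and 0 past the adjustment in edgeR (1 with no filter on low counts). These 9 were 31.0% of those tested, against 12.8% of all tested genes (4.45% higher and 8.34% lower). With upper-quartile scaling there were 1 higher and 4 lower, and without wild type replicate 3 there were 5 in all, in place of 9. With the length trend removed there were 1 higher and 3 lower, and the median log2 fold change of the list was -0.0038, against -0.16 without the removal. Cebpb, which encodes C/EBP beta, was at 134, 299.9 and 495 CPM in Lama4-/- replicates 1 to 3, against 23.9, 22.9 and 11.96 CPM in wild type replicates 1 to 3. Its log2 fold change was 3.99 (SE 0.53, adjusted p = 0.192 in edgeR, 2.02e-13 in DESeq2), and 3.71 with the length trend removed; 312 of its exon bases overlap the gene Tmem189. The NF-kB subunit gene Rel was at 22.3, 47.5 and 36.96 CPM in Lama4-/-, against 82.3, 96.1 and 78.2 CPM in wild type (log2 fold change -1.26, SE 0.31, adjusted p = 0.237 in edgeR, 0.00965 in DESeq2), and its log2 fold change was -0.44 with the length trend removed. The p38 kinase Mapk14, an inducer of the secretory phenotype, was at 42.0 ± 7.25 CPM in Lama4-/- and 73.8 ± 19.6 CPM in wild type (SD, n = 3 each; log2 fold change -0.81, adjusted p = 0.295 in edgeR).

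Gdf15, a stress cytokine of the TGF-beta superfamily that is induced by p53 and by the integrated stress response, had the largest positive log2 fold change of the 8 tested members. Gdf15 (chromosome 8, 70629393 to 70632456, minus strand) was at 22.7, 21.9 and 29.5 CPM in Lama4-/- replicates 1, 2 and 3, and at 25.7, 17.5 and 8.33 CPM in wild type replicates 1, 2 and 3. The Lama4-/- libraries lay close together, within 1.35 times of each other, whereas wild type spread 3.09-fold and its replicate 1 exceeded 2 of the 3 Lama4-/- libraries. Gdf15 had a log2 fold change of 0.52 (SE 0.44), with a 95% interval from -0.51 to 1.55 (adjusted p = 0.688 in edgeR). It was 0.19 without wild type replicate 3, 0.96 without wild type replicate 1 and 0.25 with the length trend removed.

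Of the 18 stress factors upstream of Gdf15, all tested, 4 were higher and 0 lower at an unadjusted p under 0.05, and 0 passed the adjustment in edgeR. These 4 were 22.2% of the list, against 12.8% of all tested genes (4.45% higher and 8.34% lower). In place of 4 there were 2 without Lama4-/- replicate 2 and 1 without each of Lama4-/- replicate 3 and wild type replicate 3. With the length trend removed there were 1 higher and 1 lower, and the median of the list was close to 0 in both fits, at -0.03 and -0.06. Atf3, a stress-induced transcription factor, was at 1497, 980.4 and 1680 CPM in Lama4-/- replicates 1 to 3, against 805, 871 and 748 CPM in wild type replicates 1 to 3 (log2 fold change 0.78, SE 0.24, adjusted p = 0.267 in edgeR, 0.0459 in DESeq2). Asparagine synthetase (Asns), a target of ATF4, was at 86.0 ± 24.4 CPM in Lama4-/- and 49.7 ± 9.59 CPM in wild type (adjusted p = 0.325 in edgeR), with groups that overlapped. Xbp1, a transcription factor of the unfolded protein response, was at 429 ± 58.8 CPM in Lama4-/- and 318 ± 25.8 CPM in wild type (SD, n = 3 each; adjusted p = 0.379).

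Glb1 (chromosome 9, 114401076 to 114474898, plus strand) encodes the lysosomal beta-galactosidase behind the senescence-associated stain. It was at 65.1, 43.3 and 41.0 CPM in Lama4-/- replicates 1, 2 and 3, and at 48.8, 39.6 and 28.7 CPM in wild type replicates 1, 2 and 3. Lama4-/- replicate 1 was the highest and wild type replicate 3 the lowest, and the other 4 lay between 39.6 and 48.8 CPM. Glb1 had a log2 fold change of 0.35 (SE 0.30), with a 95% interval from -0.36 to 1.06 (adjusted p = 0.693 in edgeR). It was 0.12 without Lama4-/- replicate 1, 0.18 without wild type replicate 3 and 0.56 without wild type replicate 1. Exons of Glb1 and Tmppe share 165 bases on the same strand, and Tmppe held 1 to 66 counts a library, against 231 to 1084 for Glb1.

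All 36 genes of the lysosome list were tested, with 3 higher and 4 lower at an unadjusted p under 0.05, 0 past the adjustment in edgeR, and a median log2 fold change of 0.05. These 7 were 19.4% of the list, against 12.8% of all tested genes (4.45% higher and 8.34% lower). In place of 7 there were 4 without each of Lama4-/- replicates 1 and 3 and wild type replicate 3. Arsb and Ids encode sulfatases of glycosaminoglycan breakdown. Arsb was at 24.1 ± 8.59 CPM in Lama4-/- and 57.0 ± 10.8 CPM in wild type, and Ids at 21.5 ± 10.3 CPM in Lama4-/- and 62.6 ± 18.2 CPM in wild type (SD, n = 3 each). Their log2 fold changes were -1.24 (SE 0.34, adjusted p = 0.244 in edgeR) and -1.54 (SE 0.44, adjusted p = 0.253 in edgeR). Every Lama4-/- library lay below every wild type library in both genes, and both passed with DESeq2 (adjusted p = 0.0318 and 0.0244). Both were taken for their small p, and groups did not overlap for 22.3% of all tested genes. Exons of Arsb overlap those of the predicted gene Gm47210. With the length trend removed their log2 fold changes were -0.97 for Arsb and -1.10 for Ids. Ctsa and Neu1, whose proteins form a complex with beta-galactosidase in the lysosome, were chosen here after their values were seen, and neither had an unadjusted p under 0.05. Ctsa was at 244 to 265 CPM in Lama4-/- and 180.2 to 229.8 CPM in wild type, without overlap, and Neu1 at 30.3 to 35.1 CPM in Lama4-/- and 31.7 to 52.3 CPM in wild type. Exons of Ctsa overlap those of Neurl2 and Pltp.

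**Figure D4:**
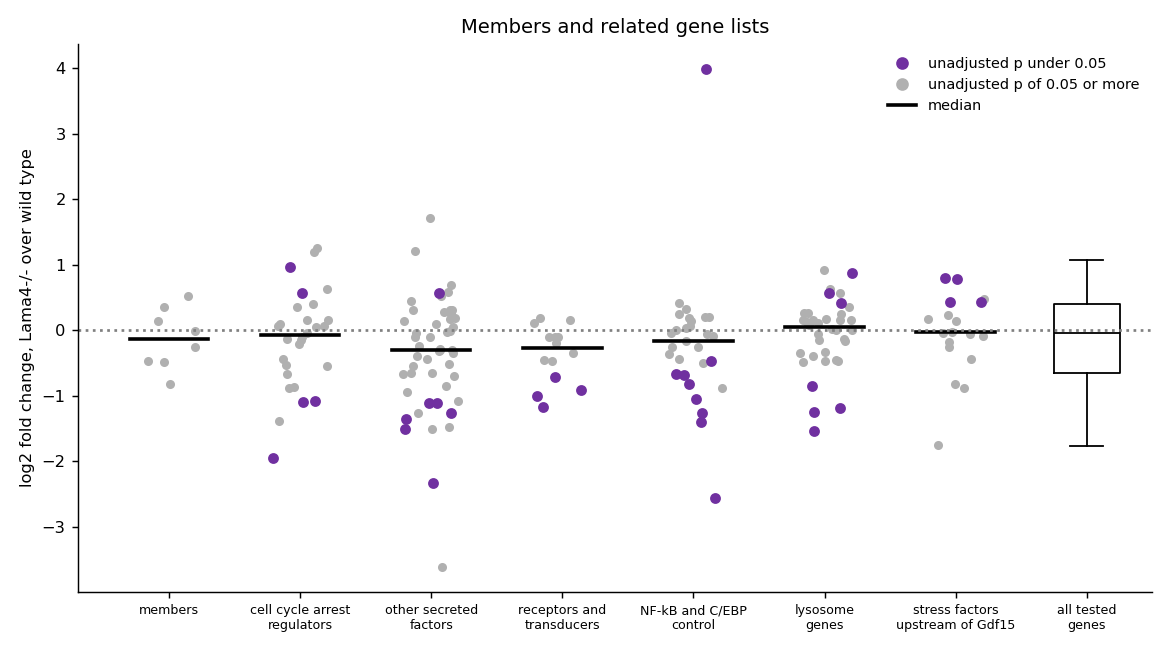
Log2 fold change (Lama4-/- over wild type, vertical axis) of the tested members and of the tested genes of the 6 related lists, 1 point a gene, purple at an unadjusted p under 0.05, with medians as black bars; the box shows all 14465 tested genes (quartiles, whiskers from the 5th to the 95th percentile). No member is purple, and the list medians lie between -0.30 and 0.05; the highest point is Cebpb.

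Myeloid cells also make several of these factors and carry receptors for them, so markers of other cell types were summed in each library. The 14 monocyte and macrophage markers, all with at least 1 count, summed to 115 to 169 CPM in Lama4-/- and 43.8 to 74.2 CPM in wild type. The sum was led by Lyz2. Of the defining macrophage genes, Adgre1 was too low to be tested, at 0 to 0.150 CPM in Lama4-/-. In wild type replicates 1 to 3 Adgre1 was at 0.0748, 0.514 and 8.18 CPM. Csf1r averaged 3.98 CPM in Lama4-/- and 1.25 CPM in wild type, and Cd68 6.73 and 9.10 CPM, with overlapping groups for both. Ptprc, which encodes CD45, had 0 counts in 2 Lama4-/- libraries and 1 wild type library. The 12 neutrophil markers summed to 86.3 to 728 CPM in Lama4-/- and 31.9 to 111 CPM in wild type, and the 9 erythroid markers to 1387 to 3882 CPM in Lama4-/- and 260 to 1696 CPM in wild type. The 8 endothelial markers summed to 0.145 to 1.58 CPM in Lama4-/- and 5.82 to 9.72 CPM in wild type, so that these groups, like those of the monocyte markers, did not overlap. These are low values: of the 8 endothelial markers, 1 had no count in any library and 2 had enough counts to be tested. Of those 2, 0 had an unadjusted p under 0.05 in edgeR. The 10 lymphocyte markers, of which 6 had no count in any library, summed to at most 1.35 CPM in Lama4-/- and 1.93 CPM in wild type. Mesenchymal markers, led by Col1a2, summed to 58641 to 148177 CPM in Lama4-/- and 98710 to 121163 CPM in wild type. Of the tested markers, 10 of 10 neutrophil and 9 of 9 erythroid ones had a positive log2 fold change, with 5 and 4 at an unadjusted p under 0.05. Of the mesenchymal ones, 9 of 10 had a negative log2 fold change, with 6 at an unadjusted p under 0.05. Over all 14465 tested genes, 6942 were positive and 7523 negative, and 4.45% were higher and 8.34% lower at that p in edgeR. Fold changes also followed transcript length (Spearman's rho -0.46), and values of these markers with that trend removed are not given. Cd44, against which the cells were sorted, was counted at 53.2 to 82.0 CPM in Lama4-/- and 70.6 to 152 CPM in wild type. The part of the other cell types in the values of Il6, the chemokines and Gdf15 was not tested, and in sorted pools fewer cells of a type and less RNA per cell cannot be told apart.

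**Figure D5:**
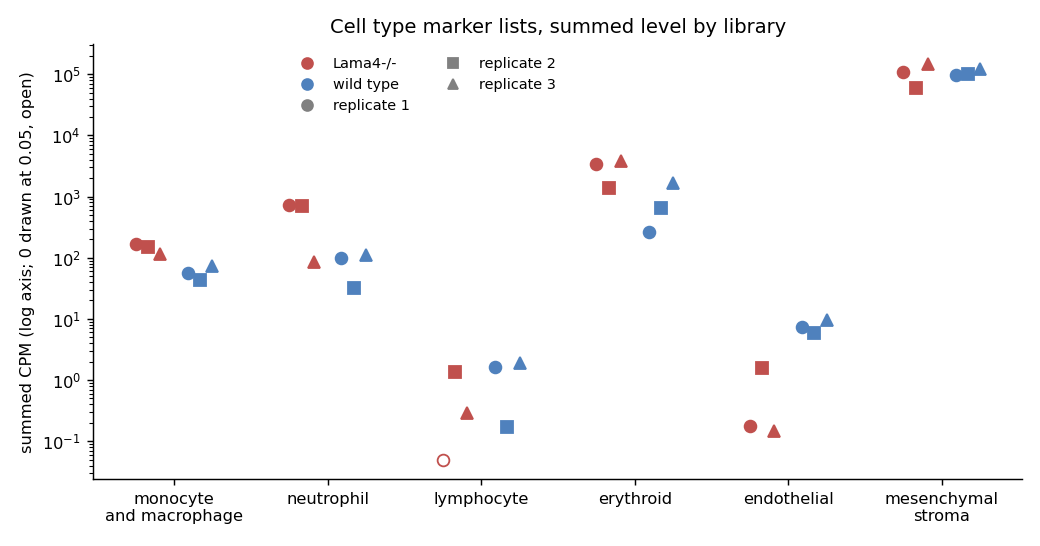
Summed CPM (log axis) of 6 marker lists in each library, Lama4-/- left of wild type, symbols marking replicates. The summed monocyte and macrophage markers, led by Lyz2, are higher in all 3 Lama4-/- libraries than in any wild type library. Single markers of that list differ: Adgre1, Cd68 and Ptprc have lower means in Lama4-/-, and Csf1r a higher one. Mesenchymal markers exceed every other list in every library.

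By their pattern over the 6 libraries, the tested genes most like Cxcl1 were Sp140, Gskip and Dimt1, with Pearson's r of log2 CPM of 0.98, 0.96 and 0.96. Those most like Lif were Hoga1, Ntn4 and Ppp1r2, with r of 0.996, 0.996 and 0.99. Among the 14465 tested genes, 23 others had an r above 0.9 with Cxcl1 and 150 with Lif. The genes named are the highest of that many, over only 6 libraries, so they are given as a description only.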

How the data were processed

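RNA of sorted cells was amplified with SMART-Seq v4 and made into Nextera XT libraries, read as single ends, per the labels' protocols; the kit does not mark strand. The submitters' processing notes name STAR 2.6.1d, featureCounts and GRCm38, without parameters. The authors deposited 1 table of 25491 genes, whose 2 blocks of values carry each other's headings. Whole numbers stand under the heading normalized, and these deposited counts were tested. Under the heading raw the authors deposited a scaled signal, equal to the count times 1 constant a library and used only for this check. The authors' log2 fold changes and p-values are from a DESeq2 Wald test with a beta prior, per the file headers.

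Counts were filtered with filterByExpr (14465 genes kept), scaled with TMM and tested with edgeR 4.0.16 (robust quasi-likelihood, R 4.3.3), adjusted by Benjamini-Hochberg over all tested genes. CPM uses the scaled totals, and SD is over 3 libraries. The 95% intervals come from the same fit. Every pair of libraries within a genotype differed by more than counting error (lowest chi-square 33.2 a gene). Alternatives were other scalings, no filter, DESeq2 1.42.0, limma voom 3.58.1, a replicate block, each library left out, and removal of a length trend (lowess, span 0.3). Transcript lengths, known for 99.8% of genes, are from GENCODE M21. Named genes are the 9 members, the 3 smallest p of each pathway list at a mean of at least 1 CPM (1 of these is not reported here), and those said to be chosen after seeing values. Procedures were tested on simulated counts. Members and lists were chosen with earlier results of these data known.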

Additional observations from a re-analysis of the deposited data

How the results depend on the processing

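No member passed an adjusted p of 0.05 under any of the 14 alternatives run (DESeq2, limma voom or edgeR), and 1 had an unadjusted p under 0.05 in 1 of them (Lif without wild type replicate 1). The count of all genes past the threshold, 1 in the edgeR test, was 12 with no filter and 741 with DESeq2. It was 0 with upper-quartile scaling, limma voom, the replicate block, the length trend removed, and the block together with the length trend removed, and 0 to 1 with each library left out. The cause was not tested. Upper-quartile scaling also changed the split at an unadjusted p under 0.05, to 988 genes higher and 967 lower in Lama4-/-, against 644 and 1207 with TMM.

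The sign of Il6 turned to 0.012 with DESeq2 size factors, 0.096 with upper-quartile scaling, 0.0019 with no filter and 0.010 with DESeq2. Ccl2 turned to -0.17 with the length trend removed and to -0.11 with the block added. With each library left out, the log2 fold change ranged from -1.15 to 0.45 for Il6, -0.54 to 0.37 for Cxcl1, -0.15 to 0.67 for Ccl2 and -0.91 to 0.097 for Ccl7, and from -1.51 to -0.31 for Cdkn2b, -0.62 to -0.27 for Lif, 0.19 to 0.96 for Gdf15 and 0.12 to 0.56 for Glb1. Cdkn2b, Lif, Gdf15 and Glb1 kept their sign in all 14 alternatives. With limma voom the values of Cdkn2b and Ccl7 were -1.53 and -1.85.

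Same-numbered libraries deviated together only weakly (r of 0.040, 0.13 and 0.054 for replicates 1, 2 and 3), so the numbers were not taken as pairs, although each library correlated best with its own number. Under the block 0 genes passed, and 2 genes of the list of stress genes around Gdf15 had an unadjusted p under 0.05 in place of 4. The wide intervals, and the depth of wild type replicate 2, limit what can be seen for Cdkn2a, Cdkn2b, Il6 and Ccl7.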
